A study of Mus musculus with 15 samples.

Results

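Neuronatin (Nnat), the mesoderm-specific transcript Mest and 8 further imprinted genes (Peg3, Dlk1, Meg3, Igf2, H19, Cdkn1c, Plagl1 and Peg10) were followed through 15 RNA sequencing libraries of inguinal adipose tissue, the subcutaneous fat pad of the mouse flank. They were taken by symbol from the table of read counts per gene and are 10 of its 24015 genes. The genes were chosen by symbol, and the set was selected on 2 changes already seen in the same libraries, the response of Nnat to CL at 2 months of age and that of Mest at 12 months. These 2 changes, and their differences between the ages, are therefore described with no test and enter no count. The other members were also chosen with earlier results of these data known. Levels are read counts scaled to library size with TMM factors (CPM), which are not divided by transcript length, so they are compared between libraries and not between genes.

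All animals were C57BL/6 mice, and every group had spent 2 weeks at thermoneutrality and had been injected intraperitoneally over 5 days. Young_Ctrl (n = 4) received vehicle at 2 months and Young_CL (n = 4) received CL at 2 months. Old_Ctrl (n = 3) received vehicle at 12 months and Old_CL (n = 4) received CL at 12 months; replicate 2 of Old_Ctrl was not analysed here. The labels spell out CL as cardiolipin, whereas the same letters usually stand for a β-adrenergic agonist; the compound is not settled here and is called CL throughout. Whether libraries of a group came from separate animals is not stated, so p-values measure the spread between these libraries, which may be technical.

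Imprinted genes are expressed mainly from the copy inherited from 1 parent, because DNA methylation laid down in the egg or the sperm is kept at a control region near the gene. Nnat, Peg3, Mest, Dlk1, Igf2, Plagl1 and Peg10 are known as paternally expressed genes, and H19, Meg3 and Cdkn1c as maternally expressed ones. Many of them act on growth in the embryo and fall silent or low after birth, while several stay active in fat, where Mest rises in expanding fat cells and Dlk1 marks preadipocytes. The libraries report total RNA of each gene and do not tell the parental copies apart.

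Total counts per library ran from 6115542 to 51577001, so a gene at 3 counts stood between 0.0538 and 0.497 CPM. None of 8 adipocyte markers was at 0 in any group (Adipoq, an adipocyte hormone, averaged 1474 CPM in Young_Ctrl and 5070 CPM in Old_CL). Old_CL libraries 1, 2 and 4 were more alike than other libraries that share a group (scaled median absolute deviation of log2 ratios at most 0.0933, against at least 0.116), yet differed by more than counting error (chi-square per degree of freedom of at least 2.69); they were kept as 3 samples. Skeletal muscle transcripts were high in 5 libraries. The mean log2 CPM of 12 muscle markers was 7.36, 7.48 and 6.89 in Young_CL 1, 2 and 3, 7.83 in Old_Ctrl 3 and 7.60 in Old_CL 3, against 1.47 to 4.42 in the others, and no marker of the list was at 0 in any group's mean. Fits without these 5 libraries leave Young_CL 4 alone in its group. Its progenitor and stroma markers averaged 6.59, against 7.86 to 8.14 in Young_CL 1, 2 and 3, and its macrophage markers 5.69 against 7.08 to 7.22. The B cell and lymph node score lay between 7.04 and 7.40 in Young_Ctrl, 6.31 and 6.82 in Young_CL, 5.497 and 6.38 in Old_Ctrl and 5.42 and 5.71 in Old_CL, so it moved with both age and CL. Of 8 genes of thermogenic fat, the heat-producing state that cold and β-adrenergic agonists bring about, 8 rose with CL at 2 months (median log2 change 4.84) and 8 at 12 months (4.08). In whole tissue, fewer cells of a type and less RNA per cell cannot be told apart.

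The promoters of Nnat and Mest are shown because their changes brought the set into view, with the CG dinucleotides, the bases that carry imprinting methylation, in capitals. They span 250 bases before to 50 bases after the annotated start (RefSeq, build GRCm38.p6), and methylation was not measured in these libraries. Mest has a start site 4544 bases downstream of the first, and the counts do not separate the transcripts.
Nnat promoter, chr2:157559828-157560127, plus strand: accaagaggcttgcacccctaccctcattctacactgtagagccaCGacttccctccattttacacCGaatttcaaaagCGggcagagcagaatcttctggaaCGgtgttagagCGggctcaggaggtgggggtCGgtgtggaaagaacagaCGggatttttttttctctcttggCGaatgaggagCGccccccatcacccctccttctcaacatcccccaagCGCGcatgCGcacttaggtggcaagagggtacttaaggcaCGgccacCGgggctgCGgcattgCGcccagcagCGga
Mest promoter, first start, chr6:30733256-30733555, plus strand: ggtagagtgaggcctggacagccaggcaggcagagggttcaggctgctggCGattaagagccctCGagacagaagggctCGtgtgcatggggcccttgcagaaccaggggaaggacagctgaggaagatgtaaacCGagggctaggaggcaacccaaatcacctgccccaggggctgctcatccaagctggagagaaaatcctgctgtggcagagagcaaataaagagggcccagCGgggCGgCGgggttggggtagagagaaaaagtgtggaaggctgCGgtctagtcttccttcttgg
Mest promoter, downstream start, chr6:30737800-30738099, plus strand: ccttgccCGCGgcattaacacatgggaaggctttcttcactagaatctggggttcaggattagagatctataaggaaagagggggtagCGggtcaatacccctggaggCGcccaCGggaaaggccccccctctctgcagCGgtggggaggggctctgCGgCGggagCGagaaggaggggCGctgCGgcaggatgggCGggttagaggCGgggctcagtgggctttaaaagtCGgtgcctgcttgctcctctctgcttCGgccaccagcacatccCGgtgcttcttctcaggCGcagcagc
Nnat holds 17 CG, the first Mest promoter 8 and the downstream one 17, against a median of 7 over the 32851 promoters in the table. Among the other members with an entry, Plagl1 holds 26, Peg3 13, the first Meg3 promoter 13, the second Meg3 promoter 1 and Dlk1 9. The 4 Igf2 promoters hold between 2 and 24. The hexamer TGCCGC, which is bound by the imprint-keeping factor ZFP57 when methylated, was searched on both strands. It is held by the promoters of Nnat and Plagl1, the downstream Mest promoter, the first Meg3 promoter and the Igf2 promoter with 14 CG, and in 11.6% of all promoters. That share is of single promoters, whereas Mest, Meg3 and Igf2 were searched in more than a single promoter. The YY1 core AAGATGGCG was found in 1.40% of all promoters and in no promoter window of the 7 members.
The cAMP response element TGACGTCA, held by 1.79% of all promoters, lies in the Peg3 promoter and the first Meg3 promoter, and not in the second Meg3 promoter. The windows are shown with the element in capitals, since Peg3 was higher and Meg3 lower at 12 months than at 2 months under CL.
Peg3, chr7:6730580-6730607, minus strand: ctgactccgtTGACGTCAactccgtgcc
Meg3, chr12:109540929-109540956, plus strand: cagaatgcgcTGACGTCAaagaccaccc
The element begins 178 bases before the Peg3 start and 57 bases before the first Meg3 start. A match of letters is a description of the window and was not tested for binding.

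With CL at 2 months, H19, Mest and Peg10 rose, and 6 of the 9 members counted did not pass the test (edgeR quasi-likelihood test, adjusted p under 0.05); 43.9% of the 15288 genes tested were called in this comparison, 21.7% higher and 22.1% lower. All 9 members had libraries that overlapped between the groups, whereas 34.1% of all genes had no overlap. With CL at 12 months, Peg3, Plagl1, Peg10 and Igf2 rose and 5 of 9 did not pass, against 45.2% of all genes called (23.1% higher). The libraries of the 2 groups did not overlap for 5 of these 9 members, and for 52.8% of all genes. Both counts are near or below the share called over all genes.

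At 12 months against 2 months under vehicle, Mest, Igf2, Peg10 and Plagl1 were higher and 6 of 10 members did not pass, with 27.2% of all genes called and 15.1% higher. Nnat and Mest are kept in this count, though its vehicle libraries also enter the changes that brought them into view. The call of Mest is therefore no independent support. Igf2, Plagl1 and Peg10 (3 of 10) had no overlap between libraries, as did 27.1% of all genes. Under CL the same contrast of ages uses the Young_CL and Old_CL libraries that brought Nnat and Mest into view, so these are left out of its count. Of the other 8 members 7 were called: Peg3, Dlk1, Igf2, Cdkn1c, Plagl1 and Peg10 were higher, Meg3 was lower and H19 did not pass. Over all genes 40.0% were called, 20.5% higher and 19.4% lower, and 6 of the 8 members against 44.9% of all genes had no overlap. The median log2 difference of the 8 members was 1.304 there, against -0.01 over all genes tested. These 8 were also chosen with earlier results of these data known, so the count is a description and no independent support. The response to CL itself differed between the ages for Peg3 and Plagl1 among 8 members counted, with 7.08% of all genes called (3.31% higher, 3.77% lower). These comparisons share libraries: Young_CL and Old_CL each enter several of them, so their results are not independent of each other.

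**Figure D1:**
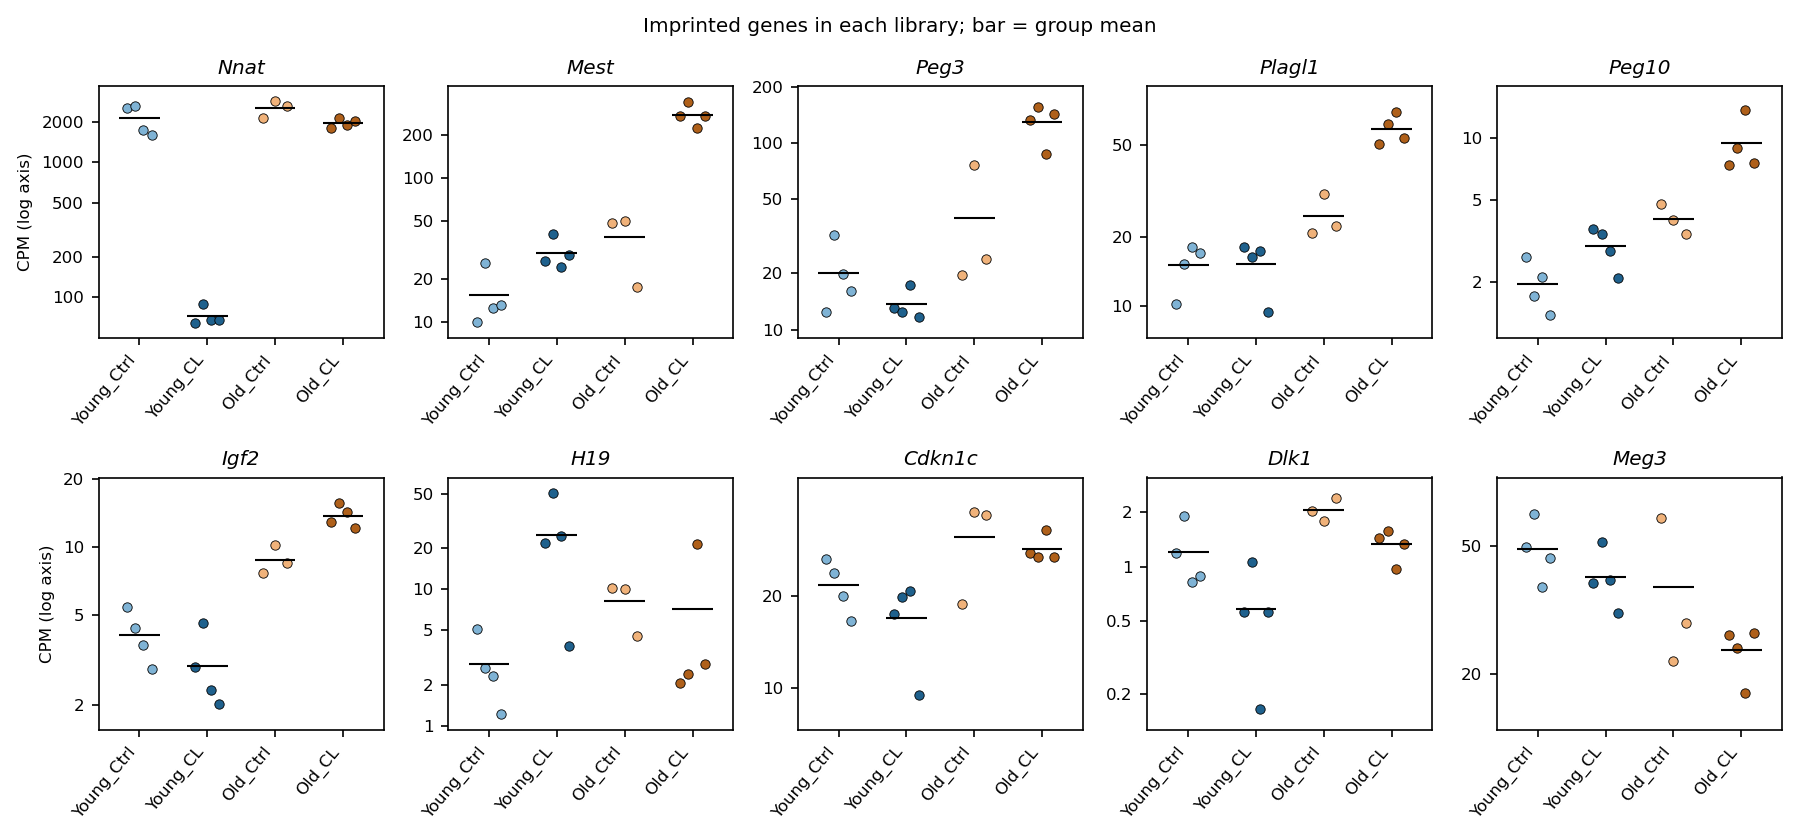
CPM of the 10 genes on a log axis, 1 point per library and a bar at each group mean, for Young_Ctrl, Young_CL, Old_Ctrl and Old_CL. Nnat is low in the 4 Young_CL libraries (65.0 to 89.1 CPM), Mest, Peg3, Plagl1, Peg10 and Igf2 are highest in the 4 Old_CL libraries, and H19 is spread within groups.

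**Figure D2:**
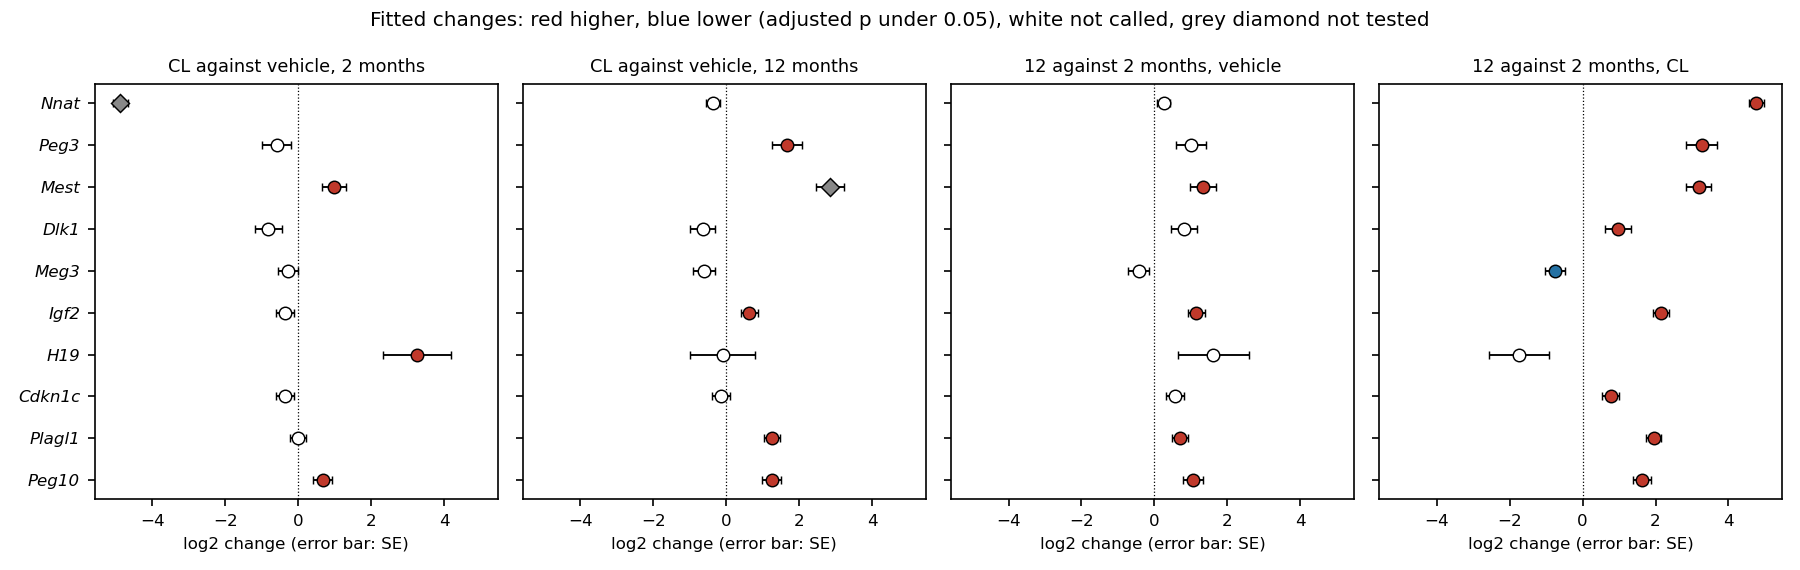
Fitted log2 changes with SE of the 10 genes in the 4 pairwise comparisons; filled red and blue circles are higher and lower at an adjusted p under 0.05, white circles did not pass and grey diamonds are values described with no test. Most genes sit to the right of 0 in the comparison of ages under CL. Nnat (4.76) and Mest are drawn as called there, but these libraries brought them into view, so both are left out of its count.

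Nnat encodes a small membrane proteolipid that binds the calcium pump SERCA. It stood at 2522, 2616, 1735 and 1610 CPM in Young_Ctrl and at 65.0, 89.1, 67.9 and 67.5 CPM in Young_CL. It stood at 2139, 2838 and 2607 CPM in Old_Ctrl and at 1811, 2153, 1885 and 2017 CPM in Old_CL. The 4 Young_CL libraries were all lower than the other 11, and the other 3 groups overlapped. The group means were 2121 ± 521 (SD, n = 4), 72.4 ± 11.2 (SD, n = 4), 2528 ± 356 (SD, n = 3) and 1966 ± 151 (SD, n = 4) CPM in that order. With CL the level at 2 months was 29.3-fold lower (log2 change -4.87, SE 0.21), which is the value that brought the gene into view. At 12 months the log2 change with CL was -0.36 (SE 0.19, edgeR adjusted p = 0.13), and the fitted difference between the ages was 4.51 (SE 0.27), given with no test. Age under vehicle gave 0.25 (SE 0.19, edgeR adjusted p = 0.32). In CL-treated tissue Nnat was 27.1-fold higher at 12 months (log2 difference 4.76, SE 0.20, edgeR adjusted p = 2.2e-09); this test shares the Young_CL libraries with the change that brought the gene into view and is no independent support. From highest to lowest the order was Old_Ctrl, Young_Ctrl, Old_CL and Young_CL; Old_Ctrl and Young_Ctrl did not differ past the threshold and Young_Ctrl and Old_CL overlapped, a pair that was not tested. Without the 5 muscle-rich libraries the young change was -4.98 (SE 0.42), with a single Young_CL library left, which is assumed to vary like the other groups.

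Nnat lies opposite Blcap, an apoptosis-related gene annotated across it on the other strand (GENCODE names, GRCm38), and the labels do not say whether counting used strand. Blcap averaged 153 ± 14.1 CPM in Young_Ctrl (SD, n = 4), 116 ± 17.5 in Young_CL (SD, n = 4), 139 ± 8.83 in Old_Ctrl (SD, n = 3) and 156 ± 13.8 in Old_CL (SD, n = 4). It fell with CL at 2 months by 0.40 on the log2 scale (SE 0.11, edgeR adjusted p = 0.0093), against 4.87 for Nnat, and at 12 months its change was 0.17 (SE 0.12, edgeR adjusted p = 0.25). Of the SERCA list, the pumps and their regulators, 4 of 5 genes were tested, with a median log2 change with CL of 0.16 at 2 months and 0.19 at 12 months. Atp2a2, the widely expressed SERCA2 pump, rose with CL by 0.42 at 2 months (SE 0.10, edgeR adjusted p = 0.0039) and by 0.46 at 12 months (SE 0.11, edgeR adjusted p = 0.0035). Atp2a3, the SERCA3 pump, fell by 0.78 at 2 months (SE 0.14, edgeR adjusted p = 5.0e-04). Atp2a1, the SERCA1 pump of fast skeletal muscle, averaged 32.6 CPM in Young_Ctrl and 367.5 CPM in Young_CL, a change of 3.52 that did not pass (SE 1.69, edgeR adjusted p = 0.11), and the muscle score was high in 3 of the 4 Young_CL libraries. Pln, phospholamban, was at 0.371 and 0.350 CPM in the same groups and did not pass at either age.

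**Figure D3:**
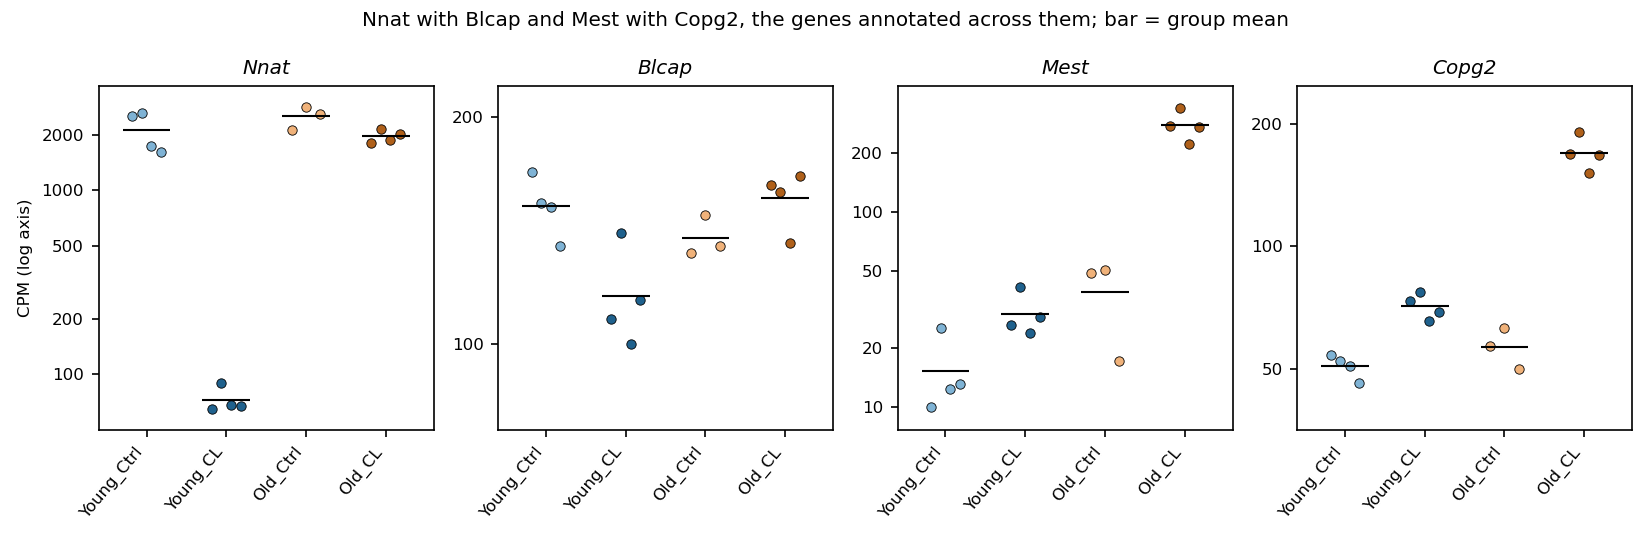
CPM on log axes of Nnat and Mest and of Blcap and Copg2, the genes annotated across them on the opposite strand, with 1 point per library and a bar at each group mean. From Young_Ctrl to Young_CL the mean of Nnat goes from 2121 to 72.4 CPM and that of Blcap from 153 to 116 CPM, and Copg2 averaged 170 CPM in Old_CL, above its 3 other groups, as did Mest at 277.

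Mest encodes a membrane protein of the α/β-hydrolase fold whose level in fat is known to follow the expansion of adipocytes. It was at 9.997, 25.5, 12.4 and 13.1 CPM in Young_Ctrl and at 26.4, 41.1, 24.0 and 29.1 CPM in Young_CL. It was at 48.6, 50.5 and 17.3 CPM in Old_Ctrl and at 273, 339, 223 and 272 CPM in Old_CL. All 4 Old_CL libraries were above every other library, whereas Young_Ctrl and Young_CL overlapped through Young_Ctrl 2, and Old_Ctrl overlapped both. Group means were 15.3 ± 6.97 (SD, n = 4), 30.1 ± 7.57 (SD, n = 4), 38.8 ± 18.6 (SD, n = 3) and 277 ± 47.3 (SD, n = 4) CPM, which is also their order from lowest to highest. The rise with CL at 12 months was 7.18-fold (log2 2.84, SE 0.38), the value that brought the gene into view, and its difference from the young response was 1.86 (SE 0.49), both with no test. At 2 months Mest rose with CL by 0.99 (SE 0.34, edgeR adjusted p = 0.028), or 1.98-fold. Under vehicle it was higher at 12 months by 1.33 (SE 0.35, edgeR adjusted p = 0.015), a test that shares the Old_Ctrl libraries with the change that brought the gene into view. Under CL it was higher by 3.19 (SE 0.34, edgeR adjusted p = 1.5e-05), a test that shares the Old_CL libraries with that change.

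The young call of Mest was lost without Young_Ctrl 1, 3 or 4 or Young_CL 2 (edgeR adjusted p from 0.079 to 0.092). It was also lost with the muscle score as a covariate (0.80, edgeR adjusted p = 0.077). Without the 5 muscle-rich libraries, which leaves Young_CL 4 as the only library of its group, the young change was 0.91. The age call under vehicle was lost without Young_Ctrl 3, Young_Ctrl 4 or Old_Ctrl 3 (edgeR adjusted p from 0.052 to 0.061) and without the muscle-rich libraries (1.01, adjusted p = 0.094).

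Copg2, a coat protein gene of the secretory pathway that runs into Mest on the opposite strand, averaged 50.8 ± 3.43 CPM in Young_Ctrl (SD, n = 4), 71.4 ± 5.14 in Young_CL (SD, n = 4), 56.6 ± 6.40 in Old_Ctrl (SD, n = 3) and 170 ± 16.1 in Old_CL (SD, n = 4). It rose with CL by 0.50 at 2 months (SE 0.10, edgeR adjusted p = 8.1e-04) and by 1.58 at 12 months (SE 0.11, edgeR adjusted p = 6.9e-07), and the difference of these changes was 1.09 (SE 0.14, edgeR adjusted p = 9.7e-04). Reads of Mest and Copg2 cannot be told apart where they overlap if strand was not used. Klf14, an imprinted transcription factor gene close to Mest, averaged 1.40, 0.431, 1.69 and 6.00 CPM in Young_Ctrl, Young_CL, Old_Ctrl and Old_CL. It rose with CL at 12 months by 1.99 (SE 0.41, edgeR adjusted p = 0.0012) and fell at 2 months, and the difference between the ages was 3.63 (SE 0.62, edgeR adjusted p = 0.0043). In the Young_CL libraries 3 counts stood for 0.105 to 0.497 CPM, so the fall and the difference of Klf14 rest on few reads.

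A list of genes known to vary with fat expansion alongside Mest was read beside it. With CL at 12 months all 9 tested of 10 listed rose, against 23.1% of all genes, with a median log2 change of 1.10 against -0.01 over all genes. The list was written with earlier results of these data known, so its count is no independent support. Lep is also 1 of the adipocyte markers. Bmp3, a secreted BMP family member, rose by 1.72 (SE 0.25, edgeR adjusted p = 1.1e-04), Fgf13 by 1.61 (SE 0.24, edgeR adjusted p = 1.1e-04), Lep, the leptin gene, by 1.36 (SE 0.30, edgeR adjusted p = 0.0019) and Cav1, the main caveolar coat protein, by 1.10 (SE 0.19, edgeR adjusted p = 3.8e-04). With CL at 2 months 2 rose and 2 fell, against 21.7% and 22.1% of all genes. Cav1 rose by 0.70 and Cav2 by 0.52, while Npr3, a natriuretic peptide clearance receptor, fell by 2.42 (SE 0.28, edgeR adjusted p = 7.4e-06) and the Wnt inhibitor Nkd1 fell by 0.997. Cell type markers moved in the same libraries: 6 of 8 adipocyte markers rose with CL at 12 months (median 0.997) and 9 of 10 progenitor and stroma markers fell (median -1.35), where 23.1% of all genes rose and 22.2% fell. The adipocyte score was 10.6 to 11.1 in Old_Ctrl and 11.6 to 11.8 in Old_CL, the stroma score 8.26 to 8.80 and 7.27 to 7.33, and their part in the rise of Mest and the fat expansion genes was not tested.

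Peg3 and Plagl1 are zinc finger transcription factor genes. Peg3 was at 12.5, 32.1, 19.7 and 16.1 CPM in Young_Ctrl, at 13.03, 12.5, 17.4 and 11.7 CPM in Young_CL, at 19.6, 75.9 and 23.9 CPM in Old_Ctrl and at 132, 155, 87.5 and 142 CPM in Old_CL. Old_CL lay above every other library, and the high value in Old_Ctrl is that of the muscle-rich library 3. Peg3 rose 3.17-fold with CL at 12 months (log2 1.66, SE 0.42, edgeR adjusted p = 0.0062), and without the muscle-rich libraries the change was 2.71 (SE 0.32, adjusted p = 3.3e-04). At 2 months its change was -0.59 (SE 0.41, edgeR adjusted p = 0.26), and the difference of the responses was 2.25 (SE 0.58, edgeR adjusted p = 0.036). Leaving out any 1 of 9 libraries (Young_Ctrl 2 or 3, Young_CL 1 or 2, Old_Ctrl 1 or 4, Old_CL 1, 2 or 4) ended that call, with edgeR adjusted p from 0.060 to 0.087. It also ended with no filter on low counts (edgeR adjusted p = 0.059), with the B cell covariate (0.062) and with Old_CL 1, 2 and 4 summed (2.09, edgeR adjusted p = 0.15), 12 of 24 alternatives in all. Without the 5 muscle-rich libraries, which leaves Young_CL 4 as the only library of its group, the difference of the responses was 3.50. Under CL Peg3 was 9.61-fold higher at 12 months than at 2 months (log2 3.26, SE 0.42, edgeR adjusted p = 7.5e-05), and under vehicle the log2 difference was 1.01 (SE 0.41, edgeR adjusted p = 0.082), which falls to 0.07 (adjusted p = 0.88) without the muscle-rich libraries. Zim1, a zinc finger gene beside Peg3, was higher at 12 months under CL by 3.76 (SE 0.61, edgeR adjusted p = 2.9e-04). It averaged 0.537 CPM in Young_CL, close to the level of 3 counts, and 6.72 CPM in Old_CL.

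Plagl1, known as a regulator of other imprinted genes and of cell cycle arrest, was at 10.3, 15.2, 18.2 and 17.0 CPM in Young_Ctrl and at 18.05, 16.4, 17.4 and 9.45 CPM in Young_CL. It was at 20.8, 30.7 and 22.4 CPM in Old_Ctrl and at 50.6, 62.1, 69.8 and 53.8 CPM in Old_CL. The young groups overlapped, all Old_Ctrl libraries lay above both, and all Old_CL libraries lay above Old_Ctrl. With CL the log2 change was 0.00 at 2 months as fitted (SE 0.21, edgeR adjusted p = 0.99) and 1.25 at 12 months (SE 0.22, edgeR adjusted p = 3.8e-04), a 2.38-fold rise. The difference of the responses was 1.25 (SE 0.30, edgeR adjusted p = 0.022), and it did not pass without Old_Ctrl 1 (adjusted p = 0.051) or Old_Ctrl 4 (adjusted p = 0.067), or with Old_CL 1, 2 and 4 summed (1.34, adjusted p = 0.082). Age gave 0.70 under vehicle (SE 0.22, edgeR adjusted p = 0.028) and 1.95 under CL (SE 0.20, edgeR adjusted p = 7.6e-06). The vehicle call was lost without Old_Ctrl 3 (0.49, adjusted p = 0.13) or Old_Ctrl 4 (0.77, adjusted p = 0.057) and without the muscle-rich libraries (0.44, adjusted p = 0.12).

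Peg10, a gene of retrotransposon origin needed for the placenta, was at 2.63, 1.72, 2.10 and 1.39 CPM in Young_Ctrl and at 3.62, 3.43, 2.82 and 2.10 CPM in Young_CL. It was at 4.76, 4.02 and 3.398 CPM in Old_Ctrl and at 7.35, 8.90, 13.7 and 7.56 CPM in Old_CL. All Old_CL libraries lay above the rest, with the highest value in the muscle-rich library 3. Peg10 rose with CL by 1.24 at 12 months (SE 0.26, edgeR adjusted p = 0.0012) and by 0.67 at 2 months (SE 0.26, edgeR adjusted p = 0.0499). The young call was lost in 12 of 16 alternatives, among them the muscle score as a covariate (0.37, edgeR adjusted p = 0.26). Leaving out Young_Ctrl 2, 3 or 4 or Young_CL 1, 2 or 3 also ended it (edgeR adjusted p from 0.070 to 0.16). Without the muscle-rich libraries, which leaves Young_CL 4 as the only library of its group, the young change was 0.14. The difference of the responses was 0.57 (SE 0.37, edgeR adjusted p = 0.34). Age gave 1.06 under vehicle (SE 0.27, edgeR adjusted p = 0.012) and 1.63 under CL (SE 0.24, edgeR adjusted p = 1.2e-04). Its neighbour Sgce, a sarcoglycan gene, was higher with age by 0.50 under vehicle (SE 0.16, edgeR adjusted p = 0.035).

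Igf2 encodes a fetal insulin-like growth factor. It was at 5.39, 4.38, 3.68 and 2.89 CPM in Young_Ctrl, at 2.95, 4.61, 2.32 and 2.02 CPM in Young_CL, at 7.64, 10.2 and 8.49 CPM in Old_Ctrl and at 12.9, 15.6, 14.3 and 12.1 CPM in Old_CL. The aged libraries were all above the young ones, and Old_CL was all above Old_Ctrl. Igf2 was higher at 12 months by 1.15 under vehicle (SE 0.24, edgeR adjusted p = 0.0039), or 2.22-fold, and by 2.15 under CL (SE 0.23, edgeR adjusted p = 7.9e-06), or 4.43-fold. It rose with CL at 12 months by 0.63 (SE 0.23, edgeR adjusted p = 0.035), and at 2 months its change was -0.37 (SE 0.24, edgeR adjusted p = 0.23). The aged call was lost without Old_Ctrl 1 or 4 or Old_CL 1, 2 or 3 (edgeR adjusted p from 0.051 to 0.11), with upper-quartile scaling (0.061), the B cell covariate (0.31) and Old_CL 1, 2 and 4 summed (0.097). The difference of the responses did not pass (0.996, SE 0.33, edgeR adjusted p = 0.079). Leaving out Young_CL 2 moved the young change to -0.68 (adjusted p = 0.027) and the difference of the responses to 1.31 (adjusted p = 0.026).

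Of 16 other genes of the insulin-like growth factor axis, 14 were tested, with median log2 changes with CL of -0.32 at 2 months and -0.06 at 12 months. Over all genes 21.7% rose and 22.1% fell with CL at 2 months, and 23.1% and 22.2% at 12 months. With CL at 12 months 4 rose and 3 fell; the receptor substrate Irs1 rose by 1.08 (SE 0.22, edgeR adjusted p = 0.0010), the insulin receptor Insr by 0.62, and the binding proteins Igfbp5 and Igfbp7 fell by 1.14 and by 0.63. At 2 months Insr alone rose, by 0.47 (SE 0.14, edgeR adjusted p = 0.013), and 3 fell: the receptor Igf1r by 0.47, Igfbp2 by 1.24 and Igfbp3 by 0.55. With age Igfbp2 fell by 3.13 under vehicle (SE 0.40, edgeR adjusted p = 2.4e-04) and by 2.82 under CL (SE 0.41, edgeR adjusted p = 1.2e-04), while Igfbp4 rose by 0.73 and 0.81. Igfbp2 averaged 4.85 CPM in Young_Ctrl and 2.16 in Young_CL. In Old_Ctrl and Old_CL it averaged 0.477 and 0.298 CPM, close to the level of 3 counts.

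Cdkn1c encodes p57, a cyclin-dependent kinase inhibitor of the Cip/Kip family. It was at 26.6, 23.9, 19.98 and 16.6 CPM in Young_Ctrl, at 17.5, 19.9, 20.9 and 9.45 CPM in Young_CL, at 18.9, 37.9 and 37.0 CPM in Old_Ctrl and at 27.8, 26.95, 32.9 and 26.96 CPM in Old_CL. Every Old_CL library was above every young one, and Old_Ctrl spanned the range. Cdkn1c was higher at 12 months under CL by 0.77 (SE 0.24, edgeR adjusted p = 0.018; adjusted p = 0.0503 without Old_CL 3), and its difference of 0.56 under vehicle did not pass (SE 0.25, edgeR adjusted p = 0.11; 0.79, adjusted p = 0.026 without Old_Ctrl 1). Its changes with CL were -0.36 at 2 months (edgeR adjusted p = 0.24) and -0.15 at 12 months (edgeR adjusted p = 0.65). Without the muscle-rich libraries the young change was -1.19, which rests on Young_CL 4 alone, the lowest of its group at 9.45 CPM. Of 14 Cip/Kip and G1 genes, 3 rose and 3 fell with CL at 2 months, and 3 rose and 4 fell at 12 months (medians -0.03 and 0.04). The shares over all genes were 21.7% and 22.1% at 2 months, and 23.1% and 22.2% at 12 months. The inhibitor gene Cdkn1a (p21) rose by 1.11 with CL at 2 months (SE 0.15, edgeR adjusted p = 4.2e-05) and by 1.33 with age under vehicle (SE 0.16, edgeR adjusted p = 1.7e-04), and the cyclin gene Ccnd1 fell by 0.82 with CL at 12 months (SE 0.10, edgeR adjusted p = 2.6e-05).

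Dlk1, a membrane protein of the Notch ligand family that marks preadipocytes, and Meg3, a long noncoding RNA, lie in 1 imprinted domain and are known to be active on opposite parental copies. Dlk1 was near the floor of the method, with 9, 22, 14 and 16 counts in Young_Ctrl, 16, 24, 1 and 7 in Young_CL, 14, 99 and 67 in Old_Ctrl and 20, 25, 33 and 24 in Old_CL. These counts correspond to 0.818 to 1.89 CPM, 0.166 to 1.05 CPM, 1.77 to 2.37 CPM and 0.970 to 1.57 CPM. Old_CL lay below Old_Ctrl with no overlap, while the young groups overlapped. With CL the log2 change was -0.82 at 2 months (SE 0.37, edgeR adjusted p = 0.085) and -0.65 at 12 months (SE 0.34, edgeR adjusted p = 0.13), neither of which passed. With age under vehicle it was 0.81 (SE 0.35, edgeR adjusted p = 0.098; 1.13, adjusted p = 0.034 without Young_Ctrl 2), and under CL Dlk1 was higher by 0.98 (SE 0.36, edgeR adjusted p = 0.039). That call was lost in 10 of 17 alternatives, among them leaving out any 1 of Young_CL 1, 3 or 4 or Old_CL 1, 2 or 4 (edgeR adjusted p from 0.070 to 0.11). It was also lost with the muscle score as a covariate (edgeR adjusted p = 0.061) and with Old_CL 1, 2 and 4 summed (edgeR adjusted p = 0.15). Without Young_CL 2 the young change with CL was -1.25 (edgeR adjusted p = 0.023).

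Meg3 was at 49.5, 62.8, 37.3 and 45.8 CPM in Young_Ctrl, at 38.4, 51.5, 39.1 and 30.9 CPM in Young_CL, at 61.2, 21.9 and 28.8 CPM in Old_Ctrl and at 26.4, 24.1, 17.4 and 26.7 CPM in Old_CL. All Old_CL libraries were below all young ones, and Old_Ctrl 1 stood apart from the other Old_Ctrl libraries. Meg3 was lower at 12 months under CL by 1.70-fold (log2 -0.77, SE 0.27, edgeR adjusted p = 0.038), a call lost in 11 of 17 alternatives. Among them were leaving out any 1 of Young_CL 1, 2 or 3 or any Old_CL library (edgeR adjusted p from 0.051 to 0.11). It was also lost with no filter (edgeR adjusted p = 0.056) and with Old_CL 1, 2 and 4 summed (edgeR adjusted p = 0.087). Without the muscle-rich libraries, which leaves Young_CL 4 alone in its group, the difference was -0.30. With CL the change was -0.28 at 2 months (edgeR adjusted p = 0.42) and -0.62 at 12 months (SE 0.29, edgeR adjusted p = 0.10; -0.90, adjusted p = 0.019 without Old_Ctrl 3), and age under vehicle gave -0.43 (edgeR adjusted p = 0.29; -0.95, adjusted p = 0.013 without Old_Ctrl 1). Rian, a noncoding RNA downstream in the same domain, averaged 20.6 ± 0.439 CPM in Young_Ctrl (SD, n = 4), 18.9 ± 3.73 in Young_CL (SD, n = 4), 14.9 ± 8.38 in Old_Ctrl (SD, n = 3) and 6.73 ± 0.991 in Old_CL (SD, n = 4). Rian fell with CL at 12 months by 1.09 (SE 0.29, edgeR adjusted p = 0.0064) and was lower with age under CL (edgeR adjusted p = 6.0e-04).

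Of 13 genes of the Notch axis, 12 were tested, with median log2 changes with CL of -0.19 at 2 months and 0.32 at 12 months. The shares over all genes were 21.7% higher and 22.1% lower with CL at 2 months, and 23.1% and 22.2% at 12 months. With age under CL 20.5% of all genes were higher. At 2 months 4 fell with CL: the receptors Notch1 by 0.56 (SE 0.12, edgeR adjusted p = 0.0021) and Notch2 by 0.58, the ligand Dll1 by 0.51 and the target Hes1 by 0.64. At 12 months 2 rose and 2 fell: the ligand genes Dll4 and Jag1 rose by 0.53 and 0.38, and Notch2 and Hes1 fell by 0.60 and by 0.45. Under CL 6 were higher at 12 months than at 2 months, among them Notch1 by 0.56 (SE 0.12, edgeR adjusted p = 0.0024) and Notch4 by 0.85.

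H19, the noncoding RNA beside Igf2, is known to be abundant in skeletal muscle. It was at 5.13, 2.66, 2.34 and 1.22 CPM in Young_Ctrl, at 21.7, 50.5, 24.4 and 3.88 CPM in Young_CL, at 10.2, 9.97 and 4.53 CPM in Old_Ctrl and at 2.07, 2.38, 21.4 and 2.84 CPM in Old_CL. The 4 libraries above 20 CPM, Young_CL 1, 2 and 3 and Old_CL 3, are among the 5 rich in muscle transcripts, and the fifth, Old_Ctrl 3, was at 9.97 CPM. H19 rose with CL at 2 months by 3.26 (SE 0.93, edgeR adjusted p = 0.014), a call lost without Young_Ctrl 4 (adjusted p = 0.052). Without the muscle-rich libraries, which leaves Young_CL 4 as the only library of its group, the change was 0.56 (SE 0.60, adjusted p = 0.54). With the muscle score as a covariate H19 kept its call at 1.67 (SE 0.58, edgeR adjusted p = 0.035), and with the B cell score it lost it at 1.59 (SE 1.70, edgeR adjusted p = 0.62). In that comparison the muscle score was 1.47 to 4.42 in Young_Ctrl and 1.97 to 7.48 in Young_CL, and 1 of 12 muscle markers was called higher. At 12 months the change with CL was -0.10 (SE 0.89, edgeR adjusted p = 0.94) in all libraries and -1.499 (SE 0.47, adjusted p = 0.032) without the muscle-rich ones. Age gave 1.62 under vehicle (SE 0.98, edgeR adjusted p = 0.23) and -1.75 under CL (SE 0.81, edgeR adjusted p = 0.11). Without Old_CL 3 the age difference under CL was -3.37 (adjusted p = 0.0035) and the difference of the CL responses moved from -3.36 (SE 1.27, edgeR adjusted p = 0.12) to -4.99 (adjusted p = 0.015). Mir675, a microRNA annotated within H19 whose reads cannot be told apart from those of its host, rose with CL at 2 months by 3.42 (SE 0.95, edgeR adjusted p = 0.0097).

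**Figure D4:**
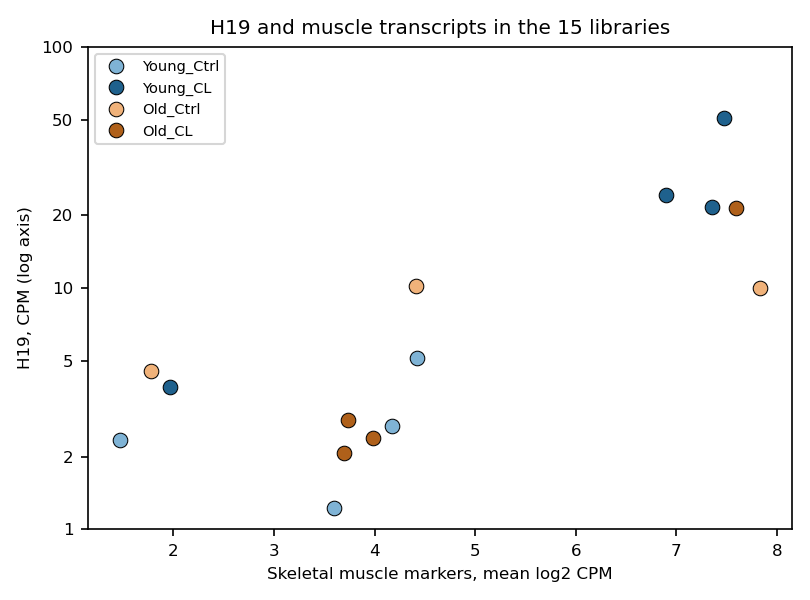
H19 level (CPM, log axis) against the mean log2 CPM of 12 skeletal muscle markers, 1 point per library, coloured by group. The 5 libraries with a muscle score of at least 6.89 lie between 9.97 and 50.5 CPM, and the other 10 between 1.22 and 10.2 CPM.

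Genes outside the set were read from a list of neighbours and a list of other genes known as imprinted. The neighbours were listed by their place beside the members, not for being imprinted. Whether genes of either list are imprinted in fat was not measured. Of 32 neighbours of the members 21 were tested: 4 rose and 2 fell with CL at 2 months, 7 rose and 1 fell at 12 months, 5 were higher with age under vehicle, and 12 were higher and 2 lower with age under CL. Their median log2 differences were 0.13, 0.33, 0.20 and 0.50 in that order, against -0.07, -0.01, 0.03 and -0.01 over all genes tested. In the same order 21.7%, 23.1%, 15.1% and 20.5% of all genes were higher, and 22.1%, 22.2%, 12.2% and 19.4% were lower. Of 34 other imprinted genes 28 were tested, Snrpn and Snurf sharing all their counts. With CL 9 rose and 5 fell at 2 months, and 10 rose and 7 fell at 12 months. With age 8 were higher and 3 lower under vehicle, and 5 were higher and 2 lower under CL. The medians were 0.12, 0.04, 0.22 and 0.06 in that order, beside the same medians and shares over all genes. The organic cation transporter genes Slc22a2 and Slc22a3 rose with CL at 12 months by 2.29 (SE 0.35, edgeR adjusted p = 1.4e-04) and by 1.05 (SE 0.13, edgeR adjusted p = 2.8e-05), and Slc22a2 also rose at 2 months, by 2.13 (SE 0.34, edgeR adjusted p = 1.5e-04). Slc22a2 averaged 0.541 CPM in Young_Ctrl and 0.423 in Old_Ctrl, close to the level of 3 counts. It averaged 2.34 CPM in Young_CL and 2.34 in Old_CL. Dcn, a matrix proteoglycan gene that also stands in the stroma list, fell by 1.32 at 12 months. Ndn, a MAGE family gene that restrains preadipocyte growth, was the single gene of this list whose CL response differed between the ages (-0.91, SE 0.19, edgeR adjusted p = 0.012).

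A list of 14 imprint maintenance genes holds DNA methyltransferases and their partners, the TET oxidases, and Zfp57, Zfp445, Trim28, Setdb1, Ctcf and Smchd1. Of these 14, 6 were lower with CL at 2 months, 6 at 12 months, 9 with age under vehicle and 8 with age under CL, and the others did not pass. Over all genes 22.1%, 22.2%, 12.2% and 19.4% were lower in these comparisons. The medians were -0.35, -0.32, -0.48 and -0.38 in that order. Dnmt1, the maintenance methyltransferase, fell with CL by 0.54 at 2 months (SE 0.11, edgeR adjusted p = 0.0012) and by 0.37 at 12 months (SE 0.12, edgeR adjusted p = 0.020), and with age under vehicle by 0.56 (SE 0.12, edgeR adjusted p = 0.0047). Uhrf1, which guides Dnmt1 to copied DNA, fell with CL at 12 months by 0.80 (SE 0.15, edgeR adjusted p = 6.1e-04) and with age under CL by 1.36 (SE 0.14, edgeR adjusted p = 5.9e-06). Tet1, a 5-methylcytosine oxidase, fell with age under vehicle by 1.43 (SE 0.27, edgeR adjusted p = 0.0025). Lymphocyte markers fell in the same comparisons: of 10 tested genes each of the B cell and T cell lists, 9 and 10 fell with CL at 2 months, 6 and 10 with CL at 12 months, 9 and 8 with age under vehicle and 9 and 10 with age under CL. Their part in the lower levels of these genes was not tested.

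Genes whose levels ran most like those of Nnat and Mest were named from 10386 genes with a mean log2 CPM of at least 3, by Pearson's r of log2 CPM over the 15 libraries, which share the groups and the depth of each library. For Nnat the highest were Mturn (0.96), Nuak1 (0.96), Ezh1 (0.96), Ndrg1 (0.95) and Cds2 (0.95). The lowest for Nnat were Cyp51 (-0.97), a cholesterol synthesis enzyme, Ciapin1 (-0.97) and Acly (-0.97), the ATP citrate lyase that feeds fatty acid synthesis. Acly averaged 192, 1894, 141 and 210 CPM in Young_Ctrl, Young_CL, Old_Ctrl and Old_CL, high in the group where Nnat was low. For Mest the highest were Svep1 (0.95), Copg2 (0.95), Ret (0.95), Fat1 (0.95) and App (0.94), and among the lowest were Hmgb2 (-0.96) and Hat1 (-0.95). Between the members, r was 0.92 for Peg3 and Plagl1, 0.89 for Mest and Plagl1, 0.89 for Mest and Peg10 and 0.88 for Mest and Peg3, while Nnat and Mest gave 0.21. These are descriptions over 4 groups and carry no test.

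Age and the B cell and lymph node score moved together, and with that score as a covariate, an alternative added after the data were seen, 1 of 15288 genes was called for age under vehicle, so the score and age cannot be told apart there. Under CL the score did not overlap between the ages either (6.31 to 6.82 in Young_CL, 5.42 to 5.71 in Old_CL). The fit with that score therefore cannot separate it from age under CL, and no conclusion is drawn from the calls it keeps or loses. In it 1491 genes were called for age under CL, and the difference kept its call for Peg3 (4.31), Igf2 (1.71) and Plagl1 (1.98). The age difference lost its call for Peg10 (1.33, edgeR adjusted p = 0.088), Meg3 (-0.55, edgeR adjusted p = 0.54), Dlk1 (0.49, edgeR adjusted p = 0.65) and Cdkn1c (-0.02, edgeR adjusted p = 0.98). With CL at 12 months Peg3, Plagl1 and Peg10 passed in all 16 alternatives, and with age under CL Peg3, Igf2 and Plagl1 passed in all 17.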

How the data were processed

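Polyadenylated RNA of inguinal adipose tissue was sequenced in 15 libraries, extracted with Trizol and PureLink and prepared with a TruSeq kit, per the labels' protocols. The authors deposited raw read counts per gene, which name STAR, featureCounts, Subread and the build mm9 per the submitters' processing notes; versions and the strand setting are not given in the sources used here. Groups came from the labels (4, 4, 3 and 4 libraries). From the counts, genes were filtered with filterByExpr (15288 of 24015 were tested), scaled by TMM and fitted with edgeR 4.0.16 (robust quasi-likelihood F test, 1 mean per group over all libraries, R 4.3.3), with Benjamini-Hochberg adjustment over all tested genes. SE is the log2 change divided by the square root of F. Calls are at an adjusted p under 0.05. The fit was tested on simulated counts.

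The members and the gene lists were chosen with earlier results of these data known. The young change of Nnat, the aged change of Mest and their differences between ages were described without a test. Named were the members, up to 4 genes of smallest p per list and comparison, and the genes most and least correlated with Nnat and Mest. Blcap and Rian, outside this rule, were added after their values were seen. Mir675, which is on no list, was also named outside the rule. A gene that the rule names is not reported here. Promoters are RefSeq's; 7 of 10 members had an entry. Alternatives were RLE and upper-quartile scaling, no filter, DESeq2 1.42.0, a replicate block and leaving out each library; chosen after seeing the data were muscle and B cell scores as covariates, leaving out 5 muscle-rich libraries, and summing Old_CL 1, 2 and 4.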

Additional observations from a re-analysis of the deposited data

Results flagged for a closer look

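In Young_CL the Nnat level of library 2, 89.1 CPM, stood apart from the other 3 (a gap of 0.878 of the group's range, above Dixon's 95% critical value for 4 libraries). In Old_CL library 3 stood apart for H19, at 21.4 CPM (0.960 of the range), and for Cdkn1c, at 32.9 CPM (0.856). Of 30 groups of 4 libraries checked, 3 stood apart, where chance gives about 5%. Old_CL 3 had a muscle score of 7.60 against 3.70 to 3.99 in the other Old_CL libraries; its part in the H19 and Cdkn1c levels was not tested.

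The response to CL differed between the ages for Peg3 (2.25 on the log2 scale) and for Plagl1 (1.25), by the edgeR test of the difference itself. The Peg3 call was lost in 12 of 24 alternatives and the Plagl1 call in 3 of 24, and summing Old_CL 1, 2 and 4 ended both (edgeR adjusted p = 0.15 and edgeR adjusted p = 0.082).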

How the results depend on the processing

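Of 880 alternative values of the members, 754 kept direction and call, 80 lost a call, 24 gained one, 20 turned direction and 2 moved (with the B cell covariate, Nnat -5.10 at 2 months and Mest 3.49 at 12 months, both log2 changes with CL). The cause was not tested for any of them. Leaving out 1 library turned some: Plagl1 with CL at 2 months ran from -0.13 to 0.17 (turned without Young_Ctrl 3, 0.09, Young_Ctrl 4, 0.05, and Young_CL 4), and H19 with CL at 12 months from -1.73 to 0.18 (turned without Old_Ctrl 1, 0.04, Old_Ctrl 3, 0.14, Old_CL 1, Old_CL 2, 0.17, and Old_CL 4, 0.15). Cdkn1c with CL at 12 months ran from -0.38 to 0.0037 (turned without Old_Ctrl 3). The difference of responses ran from -0.14 (without Young_Ctrl 2) to 0.60 for Dlk1, from -0.62 to 0.18 (without Old_Ctrl 1) for Meg3 and from -0.0247 (without Old_Ctrl 1) to 0.36 for Cdkn1c. Plagl1 with CL at 2 months was 0.0163 with the replicate block and 0.0249 with the B cell covariate, and H19 at 12 months was 0.55 with Old_CL 1, 2 and 4 summed. With the B cell covariate Peg3 was 0.23 with CL at 2 months, age under vehicle gave -0.14 for Nnat, -0.62 for H19 and -0.46 for Cdkn1c, and age under CL gave -0.0224 for Cdkn1c.

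Counts of members called, for age under CL with Nnat and Mest included, are given with counts over all genes. Without a filter 1 member had a differing response. The muscle covariate left 1 member called at 2 months and 712 genes with a differing response. The B cell covariate left 1 member and 1592 genes at 2 months, 0 members (2 at an unadjusted p under 0.05 with edgeR; 4 were called by DESeq2 without the covariate) and 1 gene (1276 unadjusted) for age under vehicle, 5 members and 1491 genes for age under CL, and 1 member with a differing response. Leaving out the muscle-rich libraries left 1 member (Cdkn1c, lower) and 2974 genes at 2 months, 1869 genes for age under CL and 203 with a differing response. Summing Old_CL 1, 2 and 4 left 3818 genes for age under CL, and 0 members (3 unadjusted, edgeR; 3 by DESeq2 unsummed) and 139 genes with a differing response. DESeq2 gave 1871 genes with a differing response. Leaving out 1 library gave 0 to 3 members and 5418 to 7609 genes at 2 months, 3 to 5 and 5599 to 6245 at 12 months, 2 to 7 and 1739 to 5851 for age under vehicle, 7 to 9 and 4849 to 6063 for age under CL, and 0 to 3 and 431 to 2070 for the difference. Of the called genes at 2 months 49.6% were higher, against 38.7% with upper-quartile scaling and 75.4% with the B cell covariate. At 12 months 51.0% were higher, against 41.5% with upper-quartile scaling.

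Replicate numbers do not pair the libraries: of 21 same-numbered pairs 6 had a correlation of deviations over 0.1, with a range of -0.42 to 0.38. With the replicate block 641 genes had a differing response, and 4, 5, 5, 9 and 2 members were called at 2 months, at 12 months, for age under vehicle, for age under CL and for the difference; Dlk1 passed with CL at 2 months (-0.93) and 12 months (-0.88) and for age under vehicle (1.09), Meg3 passed (-0.64) and Igf2 no longer passed (0.51) with CL at 12 months. Depth limits Dlk1, which had 1 count in Young_CL 3.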
